A study of Mus musculus with 6 samples.

Results

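Pericytes and vascular smooth muscle cells are the mural cells of blood vessels, and 10 of their marker transcripts were followed in preparations of heart muscle cells from young mice. The 10 genes were chosen by symbol, 6 as pericyte markers (Pdgfrb, Rgs5, Kcnj8, Abcc9, Cspg4 and Notch3) and 4 as markers of contractile smooth muscle (Myh11, Tagln, Cnn1 and Mylk), out of 22063 genes in the authors' deposited table. All 10 had enough counts to be tested, as had 13117 genes in all. Wild-type mice at postnatal day 21 were injected daily for 2 weeks with α-ketoglutarate (AKG, a metabolite of the mitochondrial tricarboxylic acid cycle) at a dose of 300 mg/kg/d, or with phosphate-buffered saline as the Control. Heart muscle cells were then isolated by Langendorff's method, in which enzyme is perfused through the coronary vessels, and 3 mRNA libraries were made per group. The labels do not say whether a library came from 1 animal or from several, so a p-value here measures only the spread between these libraries. They name no sorting step for the preparations.

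Pericytes sit on capillaries inside the basement membrane that they share with the endothelium, and smooth muscle cells form the contractile layer of arteries and larger vessels. Endothelial cells recruit both through platelet-derived growth factor B, which binds the receptor encoded by Pdgfrb, and hold them in place and specify them through Notch ligands and NOTCH3. Contractile smooth muscle is defined by a set of myosin and actin-associated proteins whose genes are switched on by serum response factor together with its coactivator myocardin. In the heart, pericytes are abundant and surround the same capillaries through which the isolating enzyme flows.

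Before the results, 4 features of the libraries bear on them. Libraries held 14402876 to 17797368 counts, and mitochondrially encoded genes took 38.3 to 43.1% of counts in Control and 25.7 to 31.4% after AKG. Because these and other abundant transcripts were lower after AKG, levels here are given as CPM, the count divided by the library total in units of 1e6 after TMM scaling of that total, which takes the bulk of genes as the reference. When plain library totals were used for scaling, the median log2 fold change of all tested genes was 0.45 in place of 0.00, so the direction of several members depended on this choice. Atrial transcripts (Sln, Myl7, Myl4, Bmp10 and Mybphl) summed to 359 and 220 CPM in AKG 1 and AKG 3, to 7.58 CPM in AKG 2 and to 6.40 to 12.0 CPM in the Controls. Transcripts of 4 Y-linked genes summed to 168, 0.311 and 176 CPM in Control 1, Control 2 and Control 3. In AKG 1, AKG 2 and AKG 3 they summed to 89.2, 50.4 and 39.0 CPM. The part of both features in the results was looked at only by leaving libraries out, which did not even out the Y-linked level between the groups.

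The 4 heart muscle markers Actc1, Myh6, Tnni3 and Myl2 stood at 2546 CPM or more in every Control library. All 10 heart muscle markers summed to 67197 to 72679 CPM in Control and to 33148 to 36535 CPM after AKG. The label of the preparations was thus borne out in both groups. Transcripts of mural cells were present beside these markers in all 6 libraries. Per transcript length, in the FPKM values that the authors deposited, Rgs5 was by far the highest of the 10 members. Rgs5 encodes a regulator that shortens signalling by G proteins and is a classical pericyte marker. Its Control level was 222.6 ± 15.3 FPKM (mean ± SD, n = 3), above that of 98.4% of tested genes. Abcc9 followed at 30.1 ± 2.68 FPKM, Pdgfrb at 24.0 ± 1.94, Kcnj8 at 19.6 ± 1.36 and Tagln at 18.2 ± 0.521 FPKM. The order ended with Notch3 at 10.5 ± 0.547 FPKM, Myh11 at 7.38 ± 0.347, Cspg4 at 5.49 ± 0.384, Mylk at 5.28 ± 0.266 and Cnn1 at 1.57 ± 0.494 FPKM. The Control values of Kcnj8 and Tagln overlapped, and so did those of Cspg4 and Mylk, while all other neighbours in this order were apart in every library. After AKG the order was the same down to Notch3, and Myh11, at 4.78 ± 0.428 FPKM, then stood below Cspg4 at 6.17 ± 0.551 FPKM and overlapped with Mylk at 4.77 ± 0.605 FPKM.

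**Figure D1:**
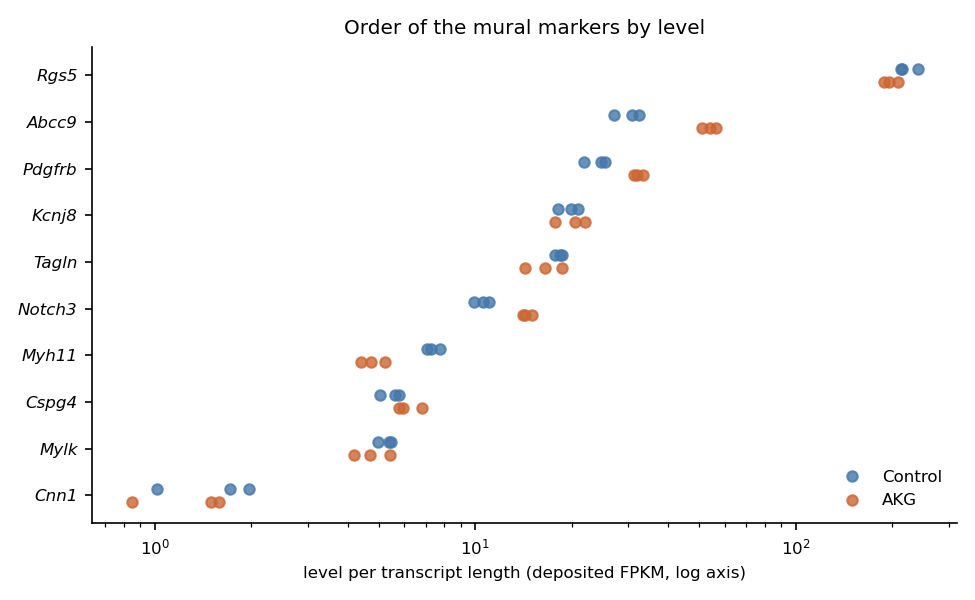
Deposited level per transcript length (FPKM, log axis) of each member, 1 point per library, with Control in blue and AKG in orange. Rgs5 lies far to the right of the other 9 members in both groups, and Myh11 is the member whose AKG points lie farthest to the left of its Control points.

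Relative to the bulk of genes, 6 of the 10 members fell after AKG, 1 rose and 3 did not pass the test. The members that fell were 3 of the 4 smooth muscle markers (Myh11, Tagln and Mylk) and 3 of the 6 pericyte markers (Rgs5, Kcnj8 and Cspg4). Abcc9 rose, and Pdgfrb, Notch3 and Cnn1 did not pass. These calls came from edgeR's quasi-likelihood test at a Benjamini-Hochberg adjusted p under 0.05 over all tested genes, by which 25.2% of all tested genes were lower, 25.0% were higher and 50.2% were called in either direction. The AKG and Control libraries did not overlap for 7 members, against 59.2% of all tested genes, a share close to the background for so few genes. The 4 smooth muscle members had a median log2 fold change of -0.56 and the 6 pericyte members one of -0.17, beside 0.00 for all tested genes. In bulk preparations fewer cells of a type and less RNA per cell cannot be told apart.

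Total counts as the scaling gave another picture: 1 member (Myh11) was lower and 3 (Abcc9, Pdgfrb and Notch3) were higher, where 9.12% of all tested genes were lower and 56.7% higher. The medians were then -0.12 for the smooth muscle members and 0.27 for the pericyte members, both below the 0.45 of all tested genes. Myh11 and Abcc9 were thus the 2 members that were called in the same direction under both scalings. For the others, only a change relative to the bulk of genes is described.

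**Figure D2:**
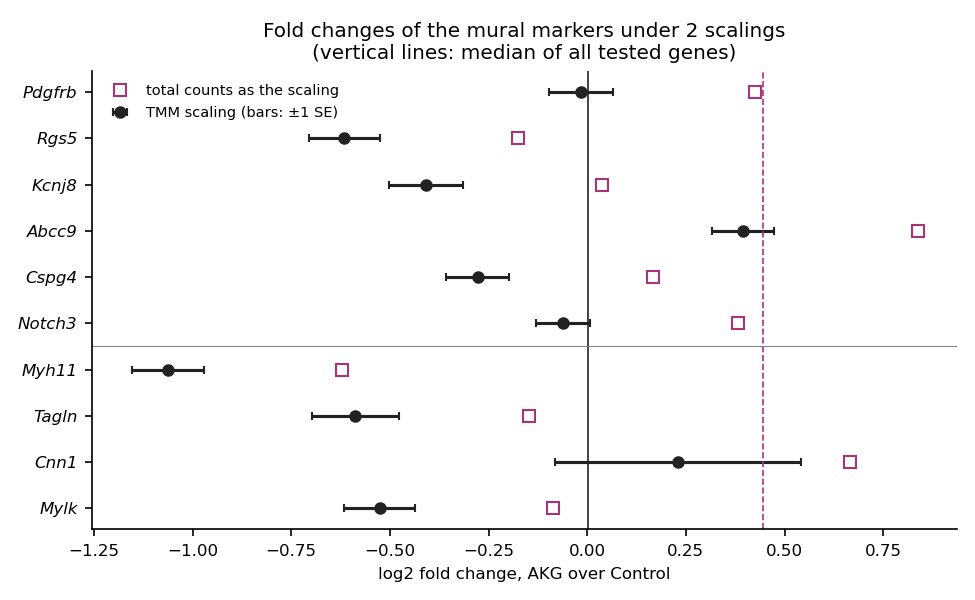
Log2 fold change (AKG over Control) of each member with TMM scaling (filled circles, bars of 1 SE) and with total counts as the scaling (open squares). The vertical lines mark the median of all tested genes under each scaling, 0.00 and 0.45. Every member shifted to the right by about the same amount, and Myh11 stayed left of 0 and Abcc9 right of 0 under both.

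Among the smooth muscle markers, Myh11 changed most. It encodes smooth muscle myosin heavy chain, the motor of the contractile apparatus and the most specific of the 4 markers. Its Control libraries stood at 56.8, 55.8 and 54.9 CPM and its AKG libraries at 24.7, 30.4 and 25.2 CPM. The Control values lay within 2 CPM of each other and all were far above the AKG values. The log2 fold change was -1.06 (SE 0.0924, edgeR quasi-likelihood adjusted p = 8.94e-07), a level 0.479 times that of Control and a larger change in size than that of 89.9% of tested genes. By total counts it was -0.62 (adjusted p = 5.94e-05 in edgeR).

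Tagln encodes transgelin, an actin-bundling protein of smooth muscle that is also made by other contractile and activated stromal cells. It stood at 35.2, 33.0 and 33.7 CPM in Control and at 25.6, 23.5 and 18.7 CPM after AKG, with AKG 3 the lowest. The groups did not overlap, and the log2 fold change was -0.59 (SE 0.111, edgeR adjusted p = 0.000632). Mylk encodes the kinase that phosphorylates the myosin light chain and so starts smooth muscle contraction. It stood at 42.0, 44.5 and 44.4 CPM in Control and at 28.3, 33.7 and 28.9 CPM after AKG. All AKG values were lower, with a log2 fold change of -0.53 (SE 0.0909, edgeR adjusted p = 0.000313). By total counts Tagln and Mylk kept the sign but not the call, at -0.15 and -0.09 (adjusted p = 0.262 and 0.473 in edgeR).

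Cnn1 encodes calponin, an actin-binding protein that marks fully differentiated contractile smooth muscle. It was the least abundant member, with 24, 45 and 19 counts in the Control libraries and 45, 29 and 46 in the AKG libraries. The groups overlapped, at 1.63, 2.80 and 1.40 CPM in Control and 2.53, 1.80 and 2.55 CPM after AKG. The log2 fold change was 0.23 with an SE of 0.311 (edgeR adjusted p = 0.563), so a moderate change in either direction could not be told from no change. Its FPKM values pointed the other way, at 1.57 ± 0.494 in Control and 1.31 ± 0.405 after AKG, and Control 3 had fewer counts than Control 1 but a higher FPKM (1.72 against 1.02), so no direction is given for it.

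**Figure D3:**
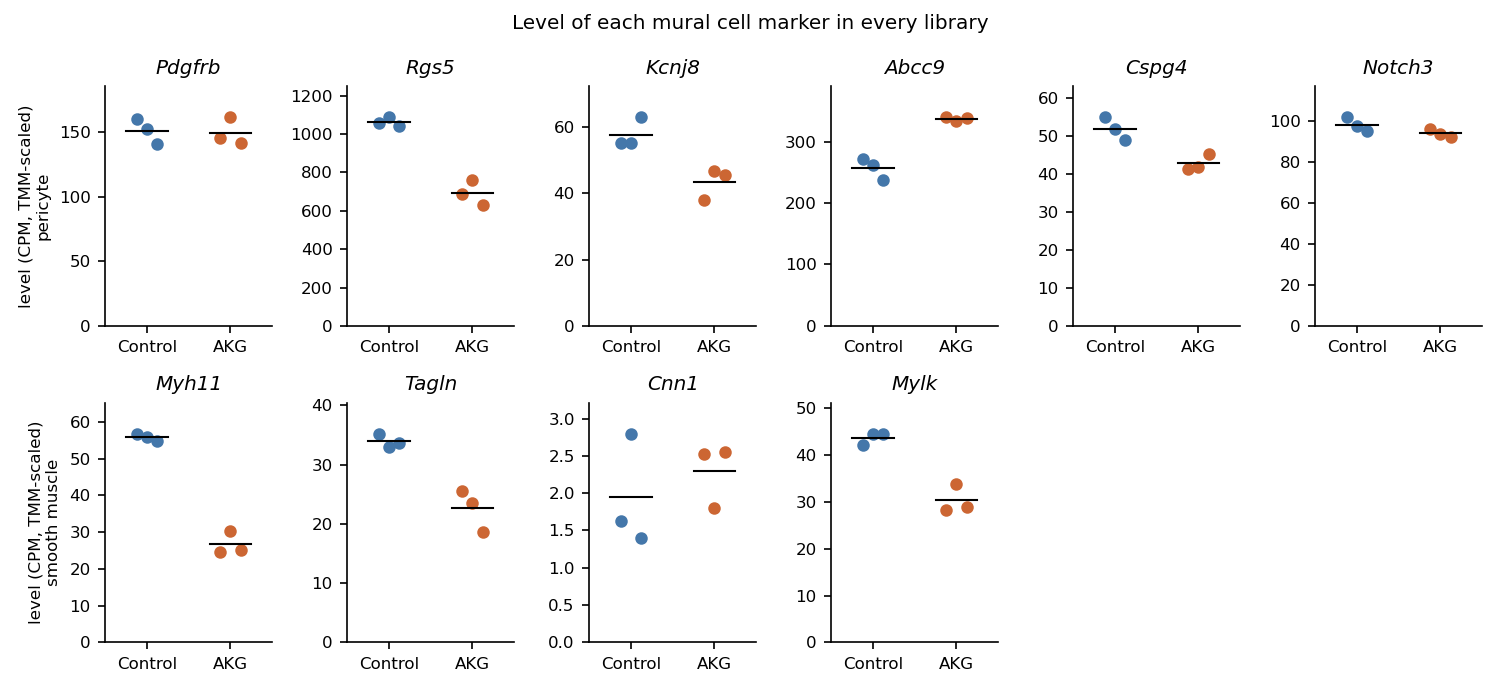
Level of each member (CPM with TMM scaling, linear axes from 0) in the 3 Control libraries (blue) and the 3 AKG libraries (orange), with black lines at the group means. The pericyte markers are in the upper row and the smooth muscle markers in the lower row. The groups overlap for Pdgfrb, Notch3 and Cnn1 only, and Abcc9 is the only member whose AKG points all lie above the Control points.

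The pericyte markers split into those that fell, those near the bulk of genes and Abcc9, which rose. Rgs5 stood at 1054, 1087 and 1042 CPM in Control and at 685, 762 and 631 CPM after AKG. Its groups were wide apart and the log2 fold change was -0.62 (SE 0.0901, edgeR adjusted p = 8.17e-05), or -0.18 (adjusted p = 0.0994) with total counts as the scaling. Cspg4 encodes the NG2 proteoglycan on the surface of pericytes and of other progenitor-like cells. It stood at 55.0, 51.9 and 49.1 CPM in Control and at 41.5, 41.9 and 45.3 CPM after AKG. The groups were apart by a small margin and the log2 fold change was -0.28 (SE 0.0795, edgeR adjusted p = 0.0102). This call was lost without Control replicate 1 (adjusted p = 0.0585 in edgeR), and with total counts as the scaling the value was 0.17.

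The receptors of the signals that recruit and specify mural cells were not among the members that fell. Pdgfrb stood at 160, 152 and 141 CPM in Control and at 146, 162 and 141 CPM after AKG. The highest and the second lowest of the 6 values both belonged to AKG libraries, and the log2 fold change was -0.02 (SE 0.081, edgeR adjusted p = 0.893). Notch3 stood at 102, 97.6 and 95.1 CPM in Control and at 96.1, 93.9 and 92.4 CPM after AKG, a log2 fold change of -0.06 (SE 0.0688, edgeR adjusted p = 0.482). Both thus lay within 1 SE of the bulk of genes. By total counts both were higher, by 0.43 and 0.38 on the log2 scale (adjusted p = 0.000573 and 0.00105 in edgeR), close to the shift of 0.45 in the median of all genes.

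Kcnj8 and Abcc9 encode the 2 kinds of subunit of the vascular ATP-sensitive potassium channel, the pore subunit Kir6.1 and the sulfonylurea receptor SUR2, which together let mural cells relax when energy runs low. In the RefSeq annotation of GRCm38.p6 they are neighbouring protein-coding genes, and both are read from the minus strand. Abcc9 is also expressed by heart muscle cells, where SUR2 pairs with the pore subunit encoded by Kcnj11. Relative to the bulk of genes these neighbours moved in opposite directions, though not by total counts. Their promoter windows are therefore printed 5′ to 3′ on the coding strand. Each window runs from 250 bases before to 50 bases after the start given by RefSeq. Capitals mark TGGGAA, the core motif of the Notch effector RBPJ, and GGGCGG, a GC box, each searched on both strands. The Kcnj8 window is chr6:142571565-142571864 and that of Abcc9 is chr6:142702225-142702524, both on the minus strand of GRCm38.p6.
Kcnj8: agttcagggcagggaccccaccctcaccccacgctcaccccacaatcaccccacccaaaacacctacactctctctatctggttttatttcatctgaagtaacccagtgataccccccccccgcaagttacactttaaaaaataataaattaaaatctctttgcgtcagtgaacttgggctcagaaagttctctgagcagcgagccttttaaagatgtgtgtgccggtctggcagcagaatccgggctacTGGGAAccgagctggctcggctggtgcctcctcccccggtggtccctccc
Abcc9: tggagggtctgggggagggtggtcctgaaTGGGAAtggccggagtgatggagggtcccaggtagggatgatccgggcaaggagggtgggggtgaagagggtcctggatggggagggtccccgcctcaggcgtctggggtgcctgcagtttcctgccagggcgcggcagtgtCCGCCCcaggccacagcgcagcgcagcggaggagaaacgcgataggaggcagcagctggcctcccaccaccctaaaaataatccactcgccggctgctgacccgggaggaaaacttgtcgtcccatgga
The Kcnj8 window held 1 copy of TGGGAA, which began at the start site, and no GC box. That of Abcc9 held 1 copy of TGGGAA at positions -221 to -216 from the start and 1 GC box, on the opposite strand, and these did not overlap. Its GC content was 65.7%, against 53.3% for Kcnj8. Of 32851 promoter windows in the same table, 25.6% held TGGGAA and 35.7% held GGGCGG on either strand. RefSeq windows were found for 7 of the 10 members, those of Pdgfrb, Myh11 and Tagln being the exceptions, and 0 of these 7 held a CArG box, the motif of serum response factor, which 1.63% of all windows held. A match or its lack describes these letters only.

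Kcnj8 stood at 55.1, 55.0 and 62.9 CPM in Control and at 38.0, 46.8 and 45.6 CPM after AKG. Every AKG value was lower, and the log2 fold change was -0.41 (SE 0.094, edgeR adjusted p = 0.00261). Abcc9 stood at 272, 262 and 237 CPM in Control and at 340, 334 and 339 CPM after AKG. Every AKG value was higher, with little spread, and the log2 fold change was 0.39 (SE 0.079, edgeR adjusted p = 0.000978). By total counts Kcnj8 was at 0.04 (adjusted p = 0.774 in edgeR) and Abcc9 rose by 0.84 (1.57e-06). Kcnj11, the pore subunit of the heart muscle channel, went from 69.6 to 59.3 CPM (log2 fold change -0.23, edgeR adjusted p = 0.0518), and Abcc8, which encodes the alternative receptor SUR1, rose from 43.0 to 50.5 CPM (adjusted p = 0.0282 in edgeR). How much of the Abcc9 transcript came from mural and how much from heart muscle cells was not tested.

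Ratios of the counts of 2 members inside a library do not depend on the scaling. Of Abcc9 and Kcnj8, the Control libraries held 4.93, 4.75 and 3.78 Abcc9 counts per Kcnj8 count and the AKG libraries 8.94, 7.15 and 7.43, with no overlap. Pdgfrb counts per Rgs5 count rose from 0.142 ± 0.00872 to 0.216 ± 0.00673 (mean ± SD, n = 3), a ratio 1.52 times higher, and Notch3 per Rgs5 was 1.48 times higher. Myh11 counts per Notch3 count stood at 0.557, 0.572 and 0.577 in Control and at 0.257, 0.324 and 0.273 after AKG. Myh11 was also lower per count of Rgs5 (0.0526 ± 0.00125 against 0.0386 ± 0.00225) and per count of Mylk (1.28 ± 0.0618 against 0.882 ± 0.0165), so it was lower beside a pericyte marker and beside another smooth muscle marker. Tagln per Mylk overlapped between the groups, at 0.780 ± 0.0512 and 0.750 ± 0.136. Of these 7 ratios, chosen after values had been seen, 6 were apart between the groups, each with an exact two-sided permutation p of 0.1, the smallest that 3 libraries against 3 allow (0.117 adjusted over the 7). Because of that choice these p-values are descriptive only. The share of other gene pairs that were apart was not computed, and 59.2% of all tested genes were apart by themselves.

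**Figure D4:**
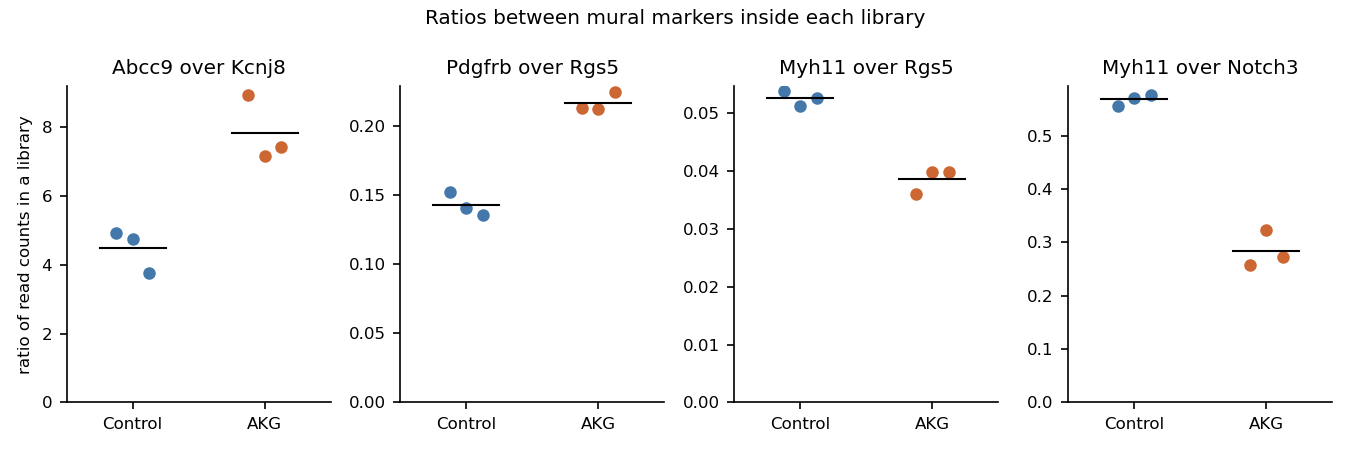
Ratio of the read counts of 2 members inside each library (linear axes from 0), with Control in blue, AKG in orange and black lines at the group means. Abcc9 over Kcnj8 and Pdgfrb over Rgs5 are higher in all AKG libraries, and Myh11 over Rgs5 and Myh11 over Notch3 are lower in all of them.

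Summed over the 4 genes, the smooth muscle members stood at 134 to 136 CPM in the Control libraries and at 75.4 to 89.5 CPM after AKG, a mean 0.606 times that of Control. The 6 pericyte members summed to 1628 to 1705 CPM and to 1295 to 1440 CPM, a mean 0.811 times that of Control, and most of this sum was Rgs5. Both sums were computed with TMM scaling only, so these falls are relative to the bulk of genes. With total counts as the scaling, 3 pericyte members were called higher and 0 lower in edgeR. By total counts the median log2 fold change was 0.27 for the pericyte members and -0.12 for the smooth muscle members, beside 0.45 for all tested genes. The counts of 6 members lower and 1 higher were also found without AKG replicate 2, the AKG library at the Control level of atrial transcripts, and without Control replicate 2, the library with nearly no Y-linked transcript. Beside them, 23% of all genes were lower and 23% higher in the first of these fits, and 21.8% and 21.4% in the second. The second fit did not even out the Y-linked level, as the Controls left in it held 168 and 176 CPM and the AKG libraries 39.0 to 89.2 CPM. With AKG 2 alone against the Controls edgeR gave 6 lower and 1 higher as well, beside 20.7% and 20.1% of all genes tested in that fit. That fit takes its spread from the Controls alone and assumes that AKG 2 varies like them.

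Other genes listed for contractile smooth muscle, not all of them specific to it, were lower more often than higher. Of 22 tested, 11 fell and 5 rose, with a median log2 fold change of -0.33, beside 25.2% and 25.0% of all tested genes. Acta2, which encodes smooth muscle α-actin, fell most, from 757, 577 and 610 CPM in Control to 210, 109 and 70.5 CPM after AKG. Its log2 fold change was -2.32, but the AKG libraries were widely spread, its SE was 0.475 and its edgeR adjusted p was 0.0166. Synpo2, which encodes an actin-bundling protein of the Z-disc and of smooth muscle, fell from 68.7 to 25.1 CPM (edgeR adjusted p = 1.95e-08), Pcp4l1 from 134 to 76.7 CPM, the kinase gene Mylk4 from 49.5 to 12.2 CPM and the light chain gene Myl6 from 221 to 125 CPM. The 5 that rose were Itga8 (log2 fold change 0.94), Ramp1 (0.85), Aoc3 (0.59), Tpm2 (0.53) and Vcl (0.39). Myl9, the regulatory light chain of smooth muscle myosin, stood at 94.0 and 82.3 CPM, with overlapping libraries (adjusted p = 0.184 in edgeR). Heart muscle expresses several of this list, among them Des, Vcl, Synpo2 and Mylk4, so these counts are not those of smooth muscle alone. Of 10 heart muscle markers 8 fell as well, with a median of -0.80. Scaled by total counts, 6 of the listed genes were higher and 8 lower, beside 56.7% and 9.12% of all tested genes. The median of the list was then 0.11, below the 0.45 of all tested genes. Acta2, Synpo2, Pcp4l1, Mylk4 and Myl6 were lower under this scaling too, and Itga8, Ramp1, Aoc3, Tpm2 and Vcl were again higher.

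Of 12 genes of the myocardin and serum response factor axis, 5 rose and 1 fell, beside 25.0% and 25.2% of all tested genes. Myocd, which encodes myocardin itself and is expressed in heart muscle as well as in smooth muscle, rose from 31.3, 31.3 and 34.4 CPM to 47.1, 42.5 and 50.7 CPM (log2 fold change 0.53, edgeR adjusted p = 0.000266). Myh11, Tagln and Mylk, textbook targets of myocardin, were lower relative to the bulk of genes in the same libraries. Cnn1, the other smooth muscle member, did not pass (log2 fold change 0.23, edgeR adjusted p = 0.563), so this fall was not shared by all 4 members. Srf stood at 53.1 and 43.6 CPM with overlapping groups (adjusted p = 0.0615 in edgeR). Gata6, a transcription factor of heart and vascular smooth muscle, rose from 49.9 to 125.5 CPM, Foxo4 from 21.1 to 41.8 CPM and the LIM protein gene Csrp1 from 51.4 to 88.7 CPM. Fhl2, a LIM protein gene that is also abundant in heart muscle, fell from 944 to 424 CPM (adjusted p = 2.82e-06 in edgeR). The directions of Myocd, Gata6, Foxo4, Csrp1 and Fhl2 held with total counts as the scaling, while Srf changed sign (log2 fold change 0.16, edgeR adjusted p = 0.242). By that scaling 8 of the 12 were higher and 1 was lower, near the 56.7% and 9.12% of all tested genes.

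Other pericyte genes were mixed. Of 18 tested, 7 rose and 4 fell, with a median log2 fold change of 0.09, beside 25.0% and 25.2% of all tested genes. Vtn, which encodes vitronectin, a matrix protein made by pericytes, fell from 49.0, 41.9 and 40.6 CPM to 13.4, 16.2 and 9.71 CPM. The log2 fold change was -1.75 (SE 0.162, edgeR adjusted p = 1.27e-05), and the groups were far apart. Cox4i2, a hypoxia-responsive subunit of cytochrome oxidase found in pericytes, fell from 12.4 to 5.17 CPM (adjusted p = 1.1e-05 in edgeR). The endothelin receptor gene Ednra rose from 32.0 to 56.2 CPM and Tbx18, a transcription factor gene of mural cells and of the epicardium, from 8.95 to 17.9 CPM. By total counts these 4 kept their direction, and 11 of the list were higher and 3 lower, beside 56.7% and 9.12% of all tested genes.

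Of 9 genes of the growth factor signals that recruit mural cells, 3 passed as higher and 2 as lower, beside 25.0% and 25.2% of all tested genes. By total counts 5 were higher, beside 56.7% of all tested genes. Pdgfb, the endothelial ligand of the receptor encoded by Pdgfrb, stood at 65.1, 64.7 and 69.5 CPM in Control and at 51.2, 55.7 and 44.1 CPM after AKG, a fall of 0.40 on the log2 scale that was gone with total counts as the scaling (0.04; edgeR adjusted p = 0.002 and 0.728). Pdgfd, another ligand of this receptor, fell from 22.5 to 13.8 CPM, and lost the call in the same way (adjusted p = 0.00496 and 0.194 in edgeR). Pdgfra, the related receptor of fibroblasts, rose from 51.2 to 71.8 CPM under TMM and also rose under total counts. Angpt1, a ligand made by mural cells that steadies vessels, rose from 8.25 to 19.7 CPM, but stood at 24.8 and 23.4 CPM in the 2 AKG libraries with atrial transcripts and at 10.9 CPM in AKG 2. The part of atrial tissue in this rise was not tested.

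Of 16 other genes of Notch signalling, 7 fell and 3 rose, with a median log2 fold change of -0.35, beside 25.2% and 25.0% of all tested genes. Among target genes, Hes1 fell from 29.7 to 20.0 CPM (edgeR adjusted p = 0.00028) and Heyl, a target gene active in mural cells that was chosen for naming after its values had been seen, from 58.2 to 41.1 CPM (0.000356). Hey2, which is expressed in ventricular heart muscle and in arteries, rose from 5.93 to 15.8 CPM (adjusted p = 1.09e-06 in edgeR). The receptor gene Notch2 fell from 65.8 to 42.6 CPM and Rbpj, which encodes the DNA-binding partner of all Notch receptors, rose from 28.8 to 46.7 CPM. Scaled by total counts, Hey2 and Rbpj still rose, 6 of the 16 were higher, beside 56.7% of all tested genes, and 0 were lower in edgeR (0 also at an unadjusted p under 0.05, and 6 lower by DESeq2 with its own size factors), and Hes1, Heyl and Notch2 did not pass (adjusted p = 0.294, 0.655 and 0.0976).

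Markers of other cell types in the same preparations moved in different directions, and each count here is read against 25.0% of all tested genes higher and 25.2% lower with TMM scaling, or 56.7% and 9.12% with total counts. Of 10 endothelial markers, 2 rose and 2 fell, with a median log2 fold change of -0.09 and a summed level of 1667 to 1820 CPM in Control and 1715 to 2057 CPM after AKG. By total counts 8 of them were higher, with a median of 0.36, below the 0.45 of all tested genes. Of 10 fibroblast markers, 2 rose and 4 fell (median -0.30, sums of 2774 to 3486 and 2479 to 3259 CPM), and by total counts 3 were higher and 2 lower. Of 8 macrophage markers, 5 fell (median -0.75, sums of 113 to 169 and 67.5 to 95.2 CPM), and by total counts 3 were lower and 1 higher.

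The 5 erythroid markers had a median of 0.09 and overlapping groups, with sums of 1386 to 1956 and 1463 to 2118 CPM. By total counts all 5 were higher, with a median of 0.53. Neutrophil markers stood at low levels, and the 7 genes of the list summed to 0.957 to 1.57 CPM in Control and to 5.62 to 12.5 CPM after AKG. The 4 of them with enough counts to be tested, Ngp, S100a9, Ltf and Mmp9, rose under both scalings, but had only 7 to 13 counts over the Control libraries and passed the count filter through the AKG libraries. The 6 epicardial markers summed to 24.5 to 27.4 CPM in Control and to 33.0 to 47.2 CPM after AKG, and the 6 Schwann cell markers to 19.4 to 22.1 and 15.5 to 17.1 CPM, so both sums were apart between the groups. Of the 4 tested in each of these lists, 1 epicardial marker (Tbx18, also a mural gene) rose and 1 Schwann cell marker (Sox10) fell. By total counts all 4 of these epicardial markers were higher, and Sox10 was still lower. No marker of these lists was at 0 in all libraries, and their part in the results for mural markers was not tested.

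**Figure D5:**
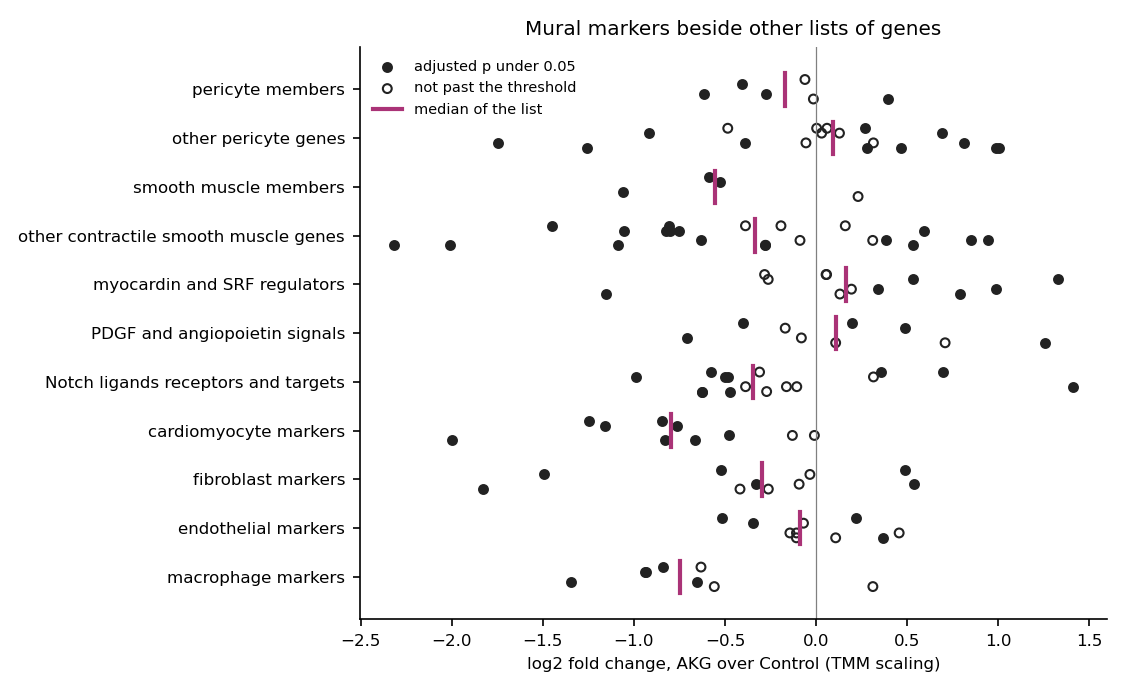
Log2 fold change (AKG over Control, TMM scaling) of every tested gene of 11 lists, filled where the edgeR adjusted p was under 0.05 and open otherwise, with the median of each list as a coloured bar. The medians were -0.56 for the smooth muscle members and -0.17 for the pericyte members, against -0.80 for heart muscle and -0.09 for endothelial markers.

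The profiles of the members were compared in pairs, over libraries of both groups, so the difference between the groups is part of each value. Likeness was measured as the root mean square difference of log2 CPM over the 6 libraries after each gene's mean was taken off, and a small value means a like profile. The closest pair was Pdgfrb and Notch3 (0.0686), followed by Rgs5 and Mylk (0.0697), a pericyte and a smooth muscle marker. The largest values were those of Myh11 with Cnn1 (0.766), which rests on the low and scattered counts of Cnn1, and of Myh11 with Abcc9 (0.739). Among 12624 other genes of at least 1 CPM, the profiles nearest to Rgs5 were those of Fxyd5 (0.0344), Fabp3 (0.0367) and Mapk12 (0.0419). Those nearest to Tagln, the smooth muscle member with the highest FPKM, were Luc7l2 (0.0311), S100a10 (0.0368) and Polr2k (0.0373). With so many genes compared over 6 libraries in 2 groups, close profiles are easily found.

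The authors' deposited table gave log2 ratios from mean FPKM that lay 0.44 above the values computed here from counts at the median tested gene. For Pdgfrb it listed a log2 ratio of 0.43 with a false discovery rate of 0.953, and for Notch3 a ratio of 0.46 with 0.695. For Kcnj8 the authors' deposited table listed 0.03 with a false discovery rate of 0.00229, and for Cspg4 0.17 with 0.0277. The deposited ratio and the deposited false discovery rate of these 4 members thus did not describe the same scale. For Myh11 (-0.63, false discovery rate 1.79e-18) and Abcc9 (0.84, 3.14e-06), the authors' deposited table gave the same direction as every scaling tried.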

How the data were processed

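RNA sequencing of heart muscle cell preparations was taken from 1 table of 6 libraries, 3 Control and 3 AKG. The authors deposited whole-number counts per gene, FPKM values, the log2 ratio of mean FPKM, and p-values with false discovery rates. The submitters' processing notes name HISAT2 2.1.0, RSEM 1.2.19 and DESeq2 1.20.0. Their roles, the genome build and the annotation are not given in the sources used here. If the counts came from a model that splits shared reads, close paralogs carry that uncertainty.

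The analysis of counts used edgeR 4.0.16 under R 4.3.3, with filterByExpr (minimum count 10, minimum total 15), TMM scaling, the robust quasi-likelihood test and Benjamini-Hochberg adjustment over 13117 genes (threshold 0.05). Each SE was taken as the size of the fold change (log2) over √F, from the test statistic F. On simulated data with 200 genes changed 2-fold, 13025 genes passed the count filter. Of the changed genes that passed it, the test recovered 85.1%, and 4.05% of calls were false. Replicates differed beyond counting noise (chi-square per gene 6.28 to 20.1). A floor of 3 counts was 0.166 to 0.221 CPM. The members and lists were chosen with earlier results of these data known. Named beside members were up to 4 genes per list by smallest p and 8 genes whatever they did. The 5 contractile smooth muscle genes that rose were named as well. DESeq2 1.42.0, limma 3.58.1, other scalings and filters, a replicate block and left-out libraries were alternatives. Sequences are from RefSeq (GRCm38.p6).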

Additional observations from a re-analysis of the deposited data

How the results depend on the processing

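The count of members lower (6) stayed within 1.5 times and that of members higher (1) was the same with RLE or upper quartile factors, without mitochondrially encoded genes, with other filters, without robust dispersions, with DESeq2, with limma-voom, and with each library left out (5 to 6 lower, 1 higher). Of all genes tested in these fits, 18.7 to 27% were lower and 18.9 to 26.3% higher. AKG 2 alone against the Controls also gave 6 and 1, in a fit whose spread comes from the Controls only. With total counts as the scaling, and with limma on log2(FPKM + 1) or log2(FPKM + 0.1), 1 member was lower and 3 were higher. Of all genes tested in these 3 settings, 9.12, 9.22 and 9.21% were lower and 56.7, 58.1 and 58.1% higher. In this order of 3 settings the log2 fold change changed sign for Pdgfrb (0.43, 0.41 and 0.43), Kcnj8 (0.037, 0.026 and 0.027), Cspg4 (0.17, 0.14 and 0.16) and Notch3 (0.38, 0.43 and 0.46), as the median of all tested genes rose to 0.45, 0.38 and 0.44. Cnn1 changed sign in the FPKM fits (-0.15 and -0.24) and with AKG 2 alone (-0.12). Pdgfrb, near 0, also did so with AKG 2 alone (0.10) and, with single libraries left out, ranged from -0.066 to 0.029. Over the 19 alternatives Myh11 ranged from -1.15 to -0.54 and Abcc9 from 0.34 to 0.84, and both kept their call in all 19. The largest adjusted p was 0.00105 for Myh11 and 0.00954 for Abcc9.

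The replicate numbers were shared by the groups, but deviations of same-numbered libraries did not correlate in every pair (0.16, -0.03 and 0.05), so they were not taken as pairs. With the replicate block 6 members were lower and 1 higher, beside 25.3% and 24.8% of all genes tested in that fit. Cnn1 had 19 to 46 counts a library, the fewest of the members. Whether depth set its missing call was not tested.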

Other observations

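Close relatives of the members also changed in size or direction. Of 19 paralogs, 17 had enough counts to be tested, and 7 rose and 6 fell in edgeR, beside 25.0% and 25.2% of all tested genes. With total counts as the scaling 9 were higher and 2 lower, beside 56.7% and 9.12%. Cspg5 is among the higher genes under both scalings, but its Control reads numbered only 12, against 57 after AKG. It passed the count filter through its AKG reads, so its call is not independent of that filter. Rgs4, like Rgs5 a regulator of G protein signalling found in pericytes, fell from 34.9, 32.9 and 36.95 CPM in Control to 9.22, 11.1 and 9.60 CPM after AKG (log2 fold change -1.81, edgeR adjusted p = 3.12e-08), a larger fall than that of Rgs5. Mylk3, the heart muscle relative of Mylk, rose from 195, 211 and 207 CPM to 362, 377 and 411 CPM (log2 fold change 0.91, edgeR adjusted p = 1.13e-06). Myh10, a non-muscle myosin heavy chain gene that is closely related to Myh11 and is expressed in immature smooth muscle as well as in other cells, rose from 64.8, 64.0 and 57.9 CPM to 121, 97.8 and 98.4 CPM (log2 fold change 0.76, edgeR adjusted p = 1.45e-05). All 3 kept their direction with total counts as the scaling. Reads from stretches that Myh10 and Myh11 share could have been split between them by the authors' counting.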
